A study of Mus musculus with 10 samples.

Results

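The miR-23, miR-27 and miR-24 clusters are a pair of paralogous groups of miRNA hairpins, 1 on mouse chromosome 8 (Mir23a, Mir27a and Mir24-2) and 1 on chromosome 13 (Mir23b, Mir27b and Mir24-1). Their 7 mature miRNAs were taken by name from a table of 1432 mature miRNA names. miR-23a-3p, miR-27a-3p and miR-24-2-5p belong to chromosome 8, and miR-23b-3p, miR-27b-3p and miR-24-1-5p to chromosome 13. miR-24-3p is made from both loci with the same sequence, so its reads cannot be assigned to either. The clusters were chosen because miRNAs of the chromosome 8 group were low in DGCR8 knock-out cortex, so values from that comparison, and from others that use its libraries, are given below as a description with no test. In the table each mature name is split by 3′ suffix, which states that no base was added or which bases were. The 7 names held 243 of 19414 such entries, 154 of them with a read.

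The hairpins of a cluster are cut from a shared primary transcript, so the mature members of a locus start from the same RNA. DGCR8 is the partner of Drosha, the nuclear enzyme that frees each hairpin, and Dicer cuts the freed hairpin to the mature duplex. The seed, the stretch near the 5′ end that pairs with target mRNAs, is held in common by paralogs of a family, so miR-27a and miR-27b are predicted to bind largely the same sites. miR-23, miR-27 and miR-24 are best known from endothelium, muscle and blood cells, and are also made in brain.

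The study sequenced small RNA of E13.5 mouse cortex (E for embryonic day), with 2 mice per genotype and 10 libraries in all. The Dicer line gave wild type (Dicer WT) and knock-out (Dicer KO) embryos, and the DGCR8 line gave wild type (DGCR8 WT), heterozygote (DGCR8 HET) and knock-out (DGCR8 KO) embryos. The knock-outs are conditional, with a driver not given in the sources used here, so cells that kept the gene may contribute reads to every knock-out library. Dicer and DGCR8 mRNA were not measured by these libraries, so the deletions could not be checked in them.

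The sequences show how alike the paralogs are, which bears on how reads could be assigned between them. Mature sequences from RefSeq on GRCm38.p6 were matched for 6 of the 7 members, and miR-23b-3p is given by name only. Capitals mark the seed, bases 2 to 8 from the 5′ end.
miR-23a-3p: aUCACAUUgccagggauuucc
miR-27a-3p: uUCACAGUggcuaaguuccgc
miR-27b-3p: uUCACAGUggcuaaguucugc
miR-24-3p: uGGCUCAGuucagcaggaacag
miR-24-2-5p: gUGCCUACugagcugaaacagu
miR-24-1-5p: gUGCCUACugagcugauaucagu
miR-27a-3p and miR-27b-3p share their seed and differ at 1 base, C19U, counted from the 5′ end with the base of miR-27a-3p first. miR-24-2-5p and miR-24-1-5p also share a seed, along with their first 16 and last 4 bases, and are 22 and 23 bases long. miR-23a-3p has the seed UCACAUU, and the miR-27 pair has UCACAGU.

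All 6 hairpins lie on the plus strand of GRCm38.p6. The chromosome 8 hairpins fall within 404 bases, with Mir23a at chr8:84208518-84208592, Mir27a at chr8:84208672-84208758 and Mir24-2 at chr8:84208815-84208921. Mir23a and Mir27a lie in no other annotated gene of that strand, and Mir24-2 overlaps an exon of the lincRNA Gm26532. The chromosome 13 hairpins span 792 bases, with Mir23b at chr13:63300484-63300557, Mir27b at chr13:63300712-63300784 and Mir24-1 at chr13:63301208-63301275. These lie inside the protein-coding gene 2010111I01Rik, where Mir23b is intronic in all 9 transcripts that span it. An exon overlaps Mir27b in 1 of 9 transcripts and Mir24-1 in 4 of 11.

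The hairpins of the 4 loci whose arms are compared below are shown with their mature arms in capitals, the 5′ arm first.
Mir27a: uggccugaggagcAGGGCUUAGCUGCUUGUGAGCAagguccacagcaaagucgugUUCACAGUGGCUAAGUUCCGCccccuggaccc
Mir24-2: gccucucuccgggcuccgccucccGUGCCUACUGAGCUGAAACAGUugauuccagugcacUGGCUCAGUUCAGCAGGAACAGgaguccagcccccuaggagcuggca
Mir27b: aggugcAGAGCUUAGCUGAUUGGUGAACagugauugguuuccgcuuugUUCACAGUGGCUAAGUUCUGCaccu
Mir24-1: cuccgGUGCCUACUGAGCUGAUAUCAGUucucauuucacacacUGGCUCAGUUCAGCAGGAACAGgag
The 3′ arms of Mir24-2 and Mir24-1 are identical, and the 5′ arms differ, so that miR-24-2-5p and miR-24-1-5p are the only tags of the separate miR-24 loci among the members.

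Libraries held 800623 to 4486774 reads assigned to miRNAs, the fewest in Dicer KO (983318 and 800623). Levels are CPM, the reads of a miRNA relative to all miRNA reads after TMM scaling, which sets each library against the bulk of its miRNAs, so a loss common to all miRNAs is not seen. Fold changes are log2 values ± SE from edgeR's quasi-likelihood fit over all 10 libraries, with n = 2 libraries per group. Of 557 miRNAs that passed the filter on low counts, 6 were members, and miR-24-1-5p did not pass. The 5 cortical miRNAs listed as markers (miR-9 arms, miR-92b-3p, miR-124-3p and miR-128-3p) were present in every library, at summed levels of 211917 to 283513 CPM in the wild types and 116336 to 132973 CPM in the knock-outs.

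In wild-type cortex the members spanned a wide range, with miR-27b-3p far above the others. miR-27b-3p stood at 5426 and 5461 CPM in Dicer WT and at 4307 and 4579 CPM in DGCR8 WT. miR-23b-3p followed at 491 and 524 CPM in Dicer WT and 420 and 419 CPM in DGCR8 WT. miR-23a-3p stood at 397 and 429 CPM in Dicer WT. Reads of miR-23b-3p outnumbered those of miR-23a-3p in each of the 10 libraries, whereas miR-23a-3p and miR-24-3p (351 and 428 CPM in Dicer WT) overlapped in Dicer WT. miR-27a-3p (155 and 186 CPM) and miR-24-2-5p (111 and 138 CPM) were the lowest tested members there and did not overlap each other. Ligation and amplification efficiencies differ between small RNA sequences, so these levels rank reads rather than molecules.

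**Figure D1:**
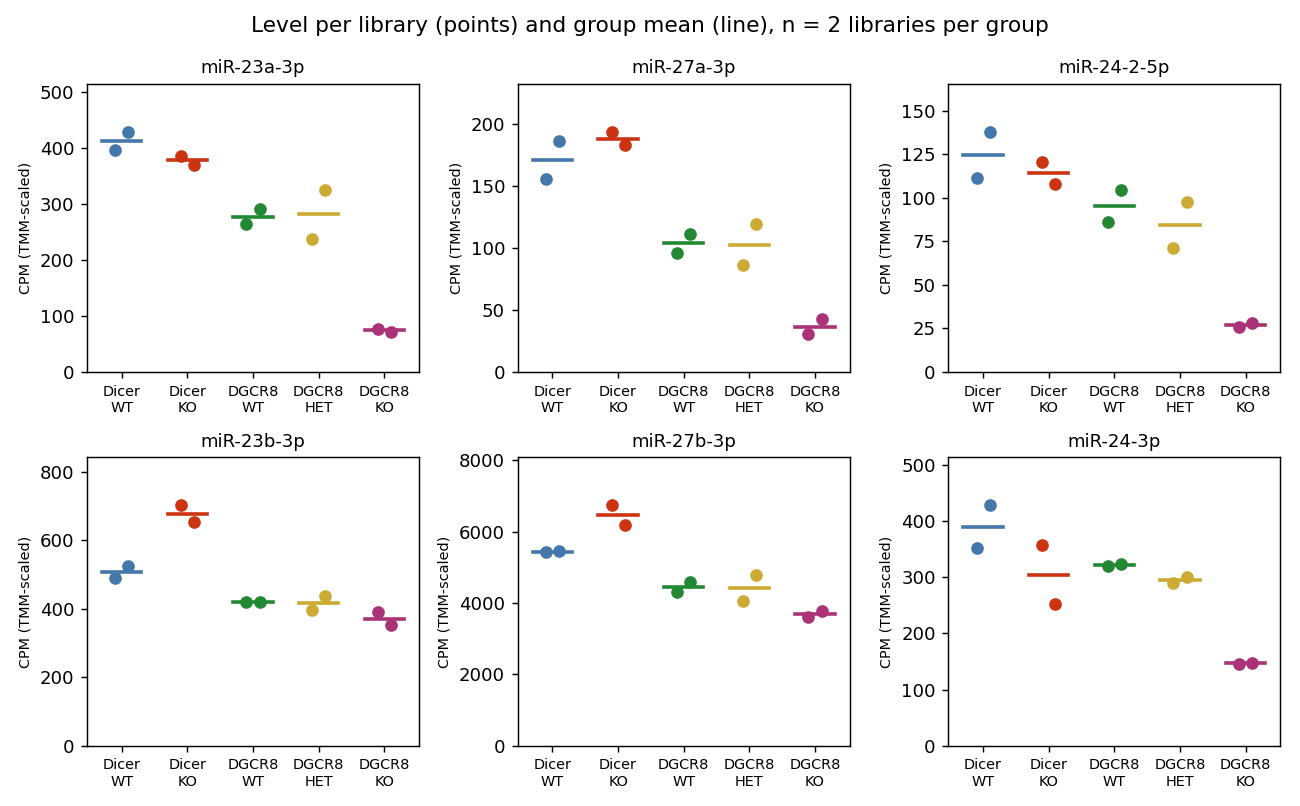
Level of the 6 tested members in each library, in TMM-scaled CPM on linear axes that start at 0, with points for libraries and a line for the mean of 2. The 3 chromosome 8 miRNAs (top row) and miR-24-3p are lowest in both DGCR8 KO libraries, while miR-23b-3p and miR-27b-3p are highest in both Dicer KO libraries.

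miR-24-1-5p, the only tag of the Mir24-1 locus, was close to the limit of detection. It had 5 and 5 reads in Dicer WT, 2 and 6 in DGCR8 WT, 1 and 2 in DGCR8 HET, 2 and 1 in DGCR8 KO and 0 in both Dicer KO libraries, 24 reads in all. A count of 0 allows up to 3 reads, which is 2.99 and 3.63 CPM in the Dicer KO libraries and lies above the 1.40 and 1.31 CPM of Dicer WT. A difference was therefore not detectable at this depth. miR-24-2-5p gave at least 97.1% of the reads of the 2 miR-24 5′ arms in every library. The 5′ arms alone do not show how the shared miR-24-3p divides between its loci, since the ratio of the arms of a hairpin can differ between loci.

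The Dicer line asks how the clusters fare when the cytoplasmic cut is lost. None of the 6 tested members changed at an adjusted p below 0.05 in edgeR's quasi-likelihood test, while 30.9% of all tested miRNAs did (172 of 557, 16% lower and 14.9% higher). At an unadjusted p below 0.05 there was 1 member, miR-23b-3p, against 241 of all miRNAs. The median log2 fold change of the 6 was 0.0087, beside -0.0098 for all 557. DESeq2 called 2 members higher, miR-23b-3p and miR-27b-3p.

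The chromosome 8 miRNAs lay near their wild-type level. miR-23a-3p stood at 386 and 370 CPM in Dicer KO against 397 and 429 CPM in Dicer WT. The groups did not overlap, a state seen in the lower direction for 33.6% of all miRNAs. The fold change was -0.13 ± 0.19 (adjusted p = 0.613, edgeR), with a 95% interval from -0.55 to 0.29. miR-27a-3p stood at 194 and 183 CPM against 155 and 186 CPM, which overlap. Its fold change was 0.14 ± 0.23 (adjusted p = 0.648, edgeR; interval -0.38 to 0.66). miR-24-2-5p stood at 121 and 108 CPM against 111 and 138 CPM, again with overlap. Its fold change was -0.12 ± 0.23 (adjusted p = 0.682, edgeR; interval -0.63 to 0.39). The signs of these 3 values were not stable: on library totals miR-23a-3p turned to 0.11 and miR-24-2-5p to 0.11, and with no filter on low counts miR-27a-3p turned to -0.04. In reads without additions the values moved further, to 0.72 for miR-23a-3p and -0.49 for miR-27a-3p, and neither was called.

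The chromosome 13 miRNAs were higher in both Dicer KO libraries than in both Dicer WT libraries, but neither passed the threshold. miR-23b-3p stood at 701 and 653 CPM in Dicer KO against 491 and 524 CPM in Dicer WT. Its fold change was 0.42 ± 0.15 (adjusted p = 0.0625, edgeR), a level 133% of wild type, with an interval from 0.08 to 0.76. miR-27b-3p stood at 6736 and 6189 CPM against 5426 and 5461 CPM. Its fold change was 0.25 ± 0.13 (adjusted p = 0.162, edgeR), with an interval from -0.04 to 0.54. Groups without overlap in the higher direction made up 33.2% of all miRNAs. On library totals both were called higher, miR-23b-3p at 0.65 (adjusted p = 0.0127) and miR-27b-3p at 0.48 (adjusted p = 0.0131, edgeR), a scaling that moved the median of all miRNAs by 0.22. In DESeq2 the values were 0.52 (adjusted p = 0.0019) and 0.35 (adjusted p = 0.0495).

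miR-24-3p, the product of both loci, stood at 357 and 252 CPM in Dicer KO against 351 and 428 CPM in Dicer WT, and the groups overlapped. The fold change was -0.35 ± 0.20 (adjusted p = 0.190, edgeR; interval -0.80 to 0.09). The overlap came from Dicer KO replicate 1 (357 CPM) and Dicer WT replicate 1 (351 CPM), and leaving out either one would end it. Without Dicer KO replicate 1 the value was -0.72, where the single remaining knock-out library is assumed to vary like the other groups. Over all alternatives the value lay between -0.76 (reads without additions) and -0.12 (library totals). The spread of miR-24-3p within Dicer KO was 304 ± 74.7 CPM (SD, n = 2), beside 389 ± 53.9 CPM in Dicer WT and 147 ± 0.76 CPM in DGCR8 KO. An SD of 2 libraries is itself uncertain.

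Markers of other cells of the tissue moved in the same comparison. The 5 tested of 6 vessel wall miRNAs (miR-126a, miR-143 and miR-145a arms) were all called higher in Dicer KO, and the 6 summed to 22552 and 26863 CPM against 8166 and 9483 CPM in Dicer WT, and miR-145a-3p had 0 reads in these 4 libraries. Of 6 blood miRNAs 4 were called higher, and they summed to 10332 to 11228 CPM against 3747 to 4680 CPM. In the mesenchyme list 5 of 6 names were in the table and 0 of 5 were called by edgeR or DESeq2 (1 at an unadjusted p below 0.05 in edgeR), with sums of 2080 to 3843 CPM against 764 to 1159 CPM. Of 5 choroid plexus miRNAs 0 were called by either tool or at an unadjusted p below 0.05 in edgeR, and their sums overlapped. Of 4 muscle miRNAs 1 passed the filter and was called higher, with sums of 18.1 to 57.9 CPM against 6.02 to 10.05 CPM. In the cortical list 3 of 5 were called lower, namely both miR-9 arms and miR-92b-3p. miR-128-3p was not called, at -0.68 (adjusted p = 0.147, edgeR). miR-124-3p went in the other direction, at 0.51 (adjusted p = 0.138, edgeR). The part of these cells in the values of miR-23b-3p and miR-27b-3p was not tested, and in bulk tissue fewer cells of a type and less RNA per cell cannot be told apart.

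DGCR8 KO against DGCR8 WT is the comparison from which the clusters were chosen, and its values are a description. miR-23a-3p stood at 77.0 and 71.5 CPM in DGCR8 KO against 264 and 291 CPM in DGCR8 WT, which is 26.7% of wild type (log2 fold change -1.90 ± 0.19). miR-24-2-5p stood at 25.8 and 27.96 CPM against 86.2 and 105 CPM, or 28.2% of wild type (-1.83 ± 0.24). miR-27a-3p stood at 30.4 and 42.5 CPM against 96.2 and 111 CPM, or 35.1% of wild type (-1.52 ± 0.24). The 3 chromosome 8 miRNAs were thus at about the same low fraction. miR-23a-3p and miR-27a-3p are 3′ arms and miR-24-2-5p is a 5′ arm, each of a different hairpin. These values therefore do not compare the arms of the same hairpin.

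The paralogs on chromosome 13 were closer to the wild-type level in the same libraries. miR-23b-3p stood at 391 and 352 CPM in DGCR8 KO against 420 and 419 CPM, or 88.5% of wild type (-0.18 ± 0.15). miR-27b-3p stood at 3615 and 3786 CPM against 4307 and 4579 CPM, or 83.3% of wild type (-0.26 ± 0.13). Both lay above wild type on library totals, at 0.24 and 0.15, where the median of all miRNAs moved by 0.43. miR-24-3p lay between the loci, with 146 and 147 CPM against 320 and 323 CPM, or 45.7% of wild type (-1.13 ± 0.20). On library totals the 4 low members were still below wild type, miR-23a-3p at -1.48, miR-24-2-5p at -1.41, miR-27a-3p at -1.11 and miR-24-3p at -0.72. The 6 tested members did not overlap between the groups, beside 38.2% of all miRNAs without overlap in the lower direction, and 4 of 6 were called lower, beside 11.8% of all miRNAs. Nothing can be read from either count, since the members were picked from this comparison. The vessel wall miRNAs summed to 4514 to 4736 CPM in DGCR8 KO and 3315 to 3595 CPM in DGCR8 WT (1 of 5 called higher), and the cortical ones to 116336 to 122973 CPM against 211917 to 242081 CPM (3 of 5 called lower). Within the cortical list miR-124-3p went in the other direction, at 0.28 (adjusted p = 0.403, edgeR), and miR-128-3p stood at -0.62 (adjusted p = 0.216, edgeR). Of the other lists, 1 of 6 blood, 1 of 1 muscle, 1 of 5 choroid plexus and 0 of 5 mesenchyme miRNAs were called higher by edgeR, and the mesenchyme list had 0 in DESeq2 and 0 at an unadjusted p below 0.05 in edgeR. DESeq2 called 2 blood, 1 muscle and 0 choroid plexus miRNAs higher. The choroid plexus call was miR-211-5p, while miR-449a-5p stood at -0.96 (adjusted p = 0.296, edgeR). The choroid plexus sums overlapped, at 1045 to 2493 CPM in DGCR8 KO against 1288 to 1416 CPM in DGCR8 WT. The part of other cells in the low chromosome 8 values was not tested.

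The members were also summed by locus and by seed, as relative reads and not as molecules. The chromosome 8 miRNAs other than miR-24-3p summed to 477 ± 43.3 CPM in DGCR8 WT and 138 ± 6.21 CPM in DGCR8 KO, 28.8% of wild type. The chromosome 13 miRNAs summed to 4864 ± 193 CPM and 4072 ± 94.0 CPM, 83.7% of wild type. Because miR-27b-3p outnumbers miR-27a-3p, the reads with the miR-27 seed stood at 82.2% of wild type in DGCR8 KO, although miR-27a-3p alone stood at 35.1%. For miR-23, where the paralogs are closer in level, miR-23a-3p and miR-23b-3p together stood at 63.9% of wild type. In Dicer KO the chromosome 8 sum was 96.1% and the chromosome 13 sum 119.9% of Dicer WT.

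**Figure D2:**
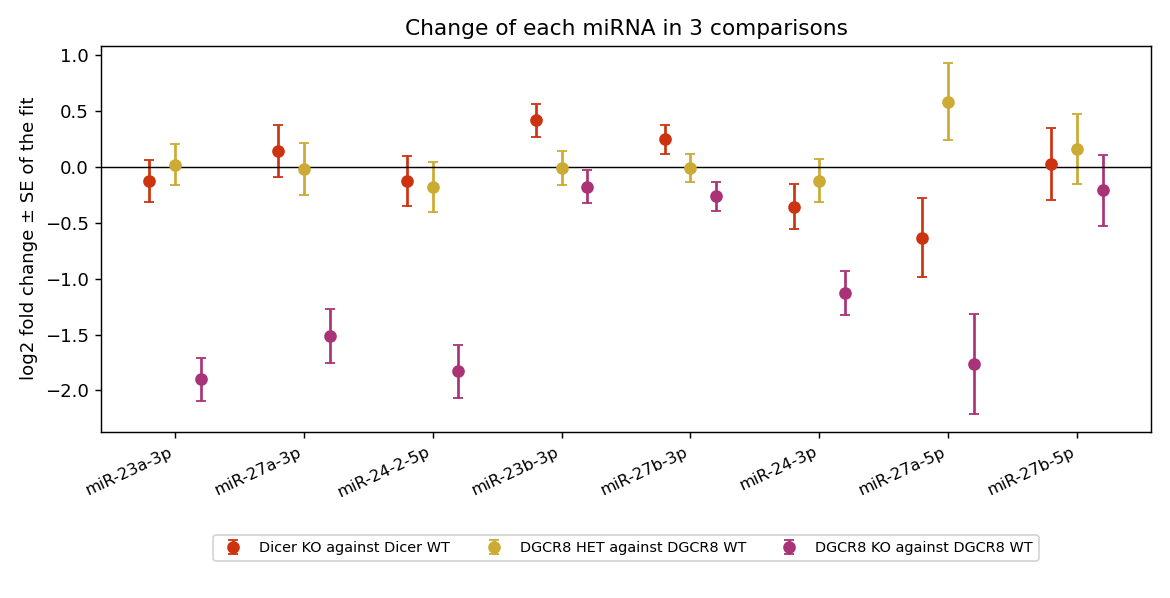
Log2 fold change of the 6 tested members and of the 5′ arms of Mir27a and Mir27b in Dicer KO (red), DGCR8 HET (yellow) and DGCR8 KO (purple), each against the wild type of its line, with bars for ± SE of the fit (n = 2 libraries per group). The chromosome 8 miRNAs lie between -1.90 and -1.52 in DGCR8 KO and between -0.13 and 0.14 in Dicer KO, and the 2 comparisons of the DGCR8 line share the DGCR8 WT libraries.

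The other arms of the hairpins had few reads, and their DGCR8 values come from the libraries that chose the clusters. miR-27a-5p, the 5′ arm of Mir27a, stood at 5.17 and 5.86 CPM in DGCR8 WT and 1.15 and 2.15 CPM in DGCR8 KO, from 26 and 7 reads in all (-1.76 ± 0.45). miR-27b-5p stood at 17.5 and 27.1 CPM in DGCR8 WT and 16.6 and 22.05 CPM in DGCR8 KO, and the groups overlapped (-0.21 ± 0.32). In Dicer KO miR-27a-5p stood at 5.99 and 10.9 CPM against 13.4 and 12.3 CPM (-0.63 ± 0.35, adjusted p = 0.193, edgeR) and miR-27b-5p at 26.9 and 36.3 CPM against 29.0 and 32.7 CPM (0.03 ± 0.32, adjusted p = 0.955, edgeR). miR-23a-5p had at most 10 reads in any group and miR-23b-5p at most 4, too few to compare.

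Opposite the miR-24 hairpins, on the minus strand, lie Mir3074-2 and Mir3074-1, whose products are named miR-3074. miR-3074-5p stood at 6.76 and 7.22 CPM in DGCR8 WT and 7.31 and 10.2 CPM in DGCR8 KO (0.31 ± 0.39), and miR-3074-1-3p at 10.3 and 11.7 CPM and 12.3 and 14.5 CPM (0.28 ± 0.35). Neither shared the low level of miR-24-2-5p in DGCR8 KO. However, miR-3074-1-3p is named for Mir3074-1 on chromosome 13, and the name miR-3074-5p gives no locus. Neither is thus a like comparison for miR-24-2-5p, which comes from chromosome 8. In Dicer KO miR-3074-5p was at 0.89 ± 0.39 (adjusted p = 0.106, edgeR) and miR-3074-1-3p at 0.28 ± 0.35 (adjusted p = 0.565, edgeR). miR-3074-2-3p, the product named for the chromosome 8 hairpin alone, had at most 1 read in any group, too few to compare.

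Heterozygous DGCR8 cortex was also set against wild type. For the 6 tested members the log2 values lay between -0.18 and 0.02, and miR-24-1-5p had too few reads to compare. miR-23a-3p stood at 237 and 326 CPM in DGCR8 HET, on either side of the 264 and 291 CPM of DGCR8 WT (0.02 ± 0.19). miR-27a-3p stood at 86.2 and 119 CPM (-0.02 ± 0.23) and miR-24-2-5p at 71.0 and 97.7 CPM (-0.18 ± 0.22). miR-23b-3p stood at 397 and 436 CPM and miR-27b-3p at 4046 and 4785 CPM, both at -0.01. miR-24-3p stood at 290 and 301 CPM (-0.12 ± 0.20), the only member with both heterozygote libraries below both wild types, beside 21% of all miRNAs. Across all miRNAs edgeR called 0% of 557 in this comparison, with 23 at an unadjusted p below 0.05 and 0 called by DESeq2. All 6 tested members were lower in heterozygote replicate 1 than in replicate 2, and the SD of 62.4 CPM for miR-23a-3p was wider than the 19.5 CPM of DGCR8 WT. The 2 heterozygote libraries also differed in markers of other cells, with vessel wall sums of 3695 and 7397 CPM and mesenchyme sums of 45.3 and 477 CPM, and the part of these cells was not tested. Against DGCR8 HET, DGCR8 KO gave -1.92 for miR-23a-3p, -1.50 for miR-27a-3p and -1.65 for miR-24-2-5p, with miR-23b-3p at -0.17 and miR-27b-3p at -0.25, and 8.62% of all miRNAs were called there. On library totals miR-23b-3p and miR-27b-3p turned to 0.24 and 0.14 in that comparison.

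The wild types of the 2 lines also stood at different levels. The log2 fold change of DGCR8 WT against Dicer WT was -0.72 for miR-27a-3p and -0.57 for miR-23a-3p. The value was -0.38 for miR-24-2-5p, -0.29 for miR-27b-3p, -0.28 for miR-24-3p and -0.27 for miR-23b-3p, with a median of -0.13 over all miRNAs and 7.54% of them called. Markers of other cells differed too. In DGCR8 WT 5 of 5 tested vessel wall miRNAs were called lower, with sums of 3315 to 3595 CPM against 8166 to 9483 CPM in Dicer WT, and 5 of 5 mesenchyme miRNAs, with sums of 32.5 to 34.97 CPM against 764 to 1159 CPM. Of the blood list 2 of 6 were called lower and of the choroid plexus list 1 of 5. The part of these cells in the lower member values of DGCR8 WT was not tested. In the cortical list 1 of 5 was called lower, miR-92b-3p (-0.77, adjusted p = 0.0162, edgeR). Another 1 was called higher, miR-124-3p (1.22, adjusted p = 0.0207, edgeR). Line and preparation cannot be told apart here, so the knock-outs were not compared with the wild type of the other line.

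Ratios inside a library do not depend on scaling. miR-23a-3p made up 44.7% and 45.0% of the reads of miR-23a-3p and miR-23b-3p in Dicer WT. In Dicer KO it made up 35.5% and 36.2%. In DGCR8 WT its share was 38.6% and 41.0%, in DGCR8 HET 37.4% and 42.7%, and in DGCR8 KO 16.5% and 16.9%. In the Dicer line the shares also did not overlap, with a lower share in the knock-out. With 2 libraries on each side the smallest two-sided p of an exact permutation test is 0.333, so no test is given. In reads without additions, miR-23a-3p was the larger part of the pair in 4 groups (71.9% in Dicer WT, 68.1% in Dicer KO, 68.1% in DGCR8 WT and 67.6% in DGCR8 HET) and 43.7% in DGCR8 KO, where 88.5% to 92.1% of miR-23b-3p reads (group means) carry an addition and drop out.

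For the miR-27 pair the shares lay apart in DGCR8 KO and overlapped in the Dicer line. miR-27a-3p made up 2.78% and 3.29% of the reads of the pair in the Dicer WT libraries, which overlap the 2.79% and 2.87% of Dicer KO. It made up 2.18% and 2.38% in DGCR8 WT, 2.09% and 2.43% in DGCR8 HET, and 0.834% and 1.11% in DGCR8 KO. The number of miR-27b-3p reads per miR-27a-3p read was 32.2 ± 3.90 in Dicer WT, 34.3 ± 0.64 in Dicer KO, 42.9 ± 2.60 in DGCR8 WT, 43.6 ± 4.74 in DGCR8 HET and 104 ± 21.0 in DGCR8 KO. The members differ at 1 base (C19U), and how mismatches and reads that match both were handled is not given in the sources used here. What part of the miR-27a-3p reads came from miR-27b-3p was not tested. The same limit holds for the miR-23 shares, since miR-23b-3p had no matched sequence and reads exchanged between miR-23a-3p and miR-23b-3p were not tested.

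**Figure D3:**
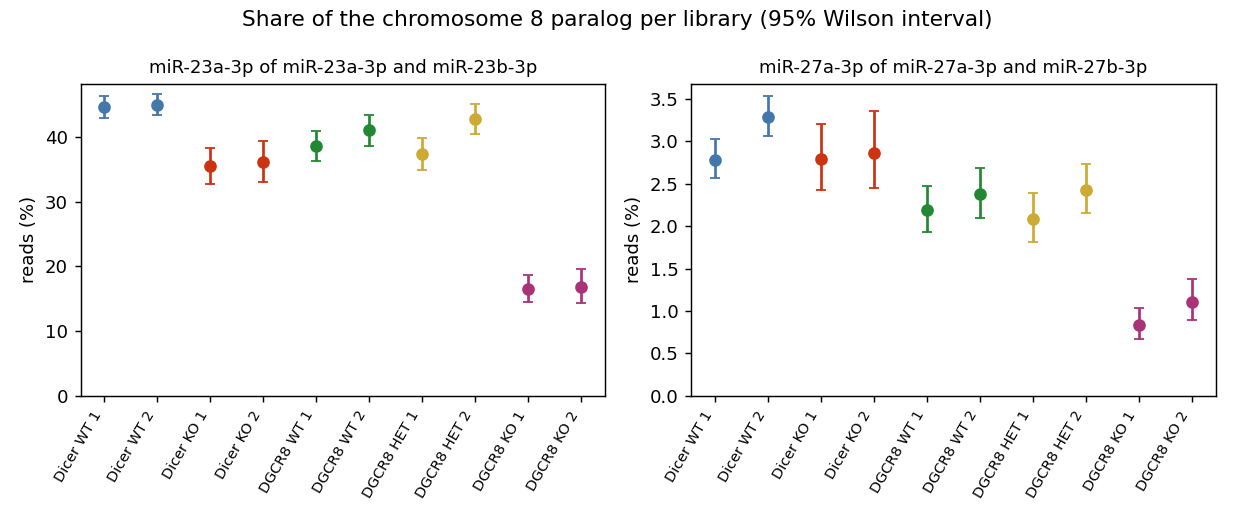
Share of the chromosome 8 paralog in the reads of each pair, per library, in percent with 95% Wilson intervals, which cover counting error only. For both pairs the DGCR8 KO libraries lie apart from the other 8, and for miR-23 the Dicer KO libraries (35.5% and 36.2%) lie below Dicer WT (44.7% and 45.0%).

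Ratios between members of 1 locus were read in the same way. The ratio of miR-23a-3p to miR-27a-3p was 2.43 ± 0.17 in Dicer WT, 2.01 ± 0.022 in Dicer KO, 2.68 ± 0.091 in DGCR8 WT, 2.74 ± 0.012 in DGCR8 HET and 2.11 ± 0.60 in DGCR8 KO (SD, n = 2). Both Dicer KO libraries (1.99 and 2.03) lay below both Dicer WT libraries (2.55 and 2.31), and the DGCR8 KO libraries were apart from each other, at 2.53 and 1.68. The ratio of miR-23a-3p to miR-24-2-5p was 3.34 ± 0.32 in Dicer WT, 3.32 ± 0.17 in Dicer KO, 2.92 ± 0.19 in DGCR8 WT, 3.34 ± 0.0062 in DGCR8 HET and 2.77 ± 0.30 in DGCR8 KO (SD, n = 2). Within chromosome 13, miR-27b-3p to miR-23b-3p had group means from 9.54 (Dicer KO) to 10.7 (Dicer WT). Here too both Dicer KO libraries (9.60 and 9.48) lay below both Dicer WT libraries (11.0 and 10.4). The ratio of miR-24-3p to miR-23b-3p was 0.77 ± 0.072 in Dicer WT and 0.45 ± 0.088 in Dicer KO. It was 0.77 ± 0.0068 in DGCR8 WT, 0.71 ± 0.028 in DGCR8 HET and 0.40 ± 0.031 in DGCR8 KO (SD, n = 2). miR-24-3p was higher relative to miR-24-2-5p in DGCR8 KO. There were 5.67 and 5.27 reads of miR-24-3p per read of miR-24-2-5p in DGCR8 KO, against 3.71 and 3.08 in DGCR8 WT, 4.08 and 3.08 in DGCR8 HET, 2.96 and 2.34 in Dicer KO and 3.16 and 3.10 in Dicer WT.

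The 3′ ends of the members were unlike each other. Below, each sequence is followed in capitals by the next 3 bases of its hairpin, and an added base that equals them cannot be told from a later cut, provided that the mature ends used by the authors are those of RefSeq.
miR-23a-3p: aucacauugccagggauuuccAAC
miR-27a-3p: uucacaguggcuaaguuccgcCCC
miR-27b-3p: uucacaguggcuaaguucugcACC
miR-24-3p: uggcucaguucagcaggaacagGAG
Suffixes are written with T, as the table has them. In miR-23a-3p most added bases were those of the hairpin. Reads whose whole suffix matched it (A or AA, for the most part) made up 36.1% to 56.6% of miR-23a-3p reads in the 10 libraries, and those with a first base that differed 0.211% to 3.76%. Another 14.5% to 19.4% began with the hairpin's A and then left it, as in AAT. miR-24-3p and miR-27a-3p were the reverse. A first base that differs from the hairpin was found in 49.96% to 68.4% of miR-24-3p reads, of which T alone made 40.8% to 59.8% of reads, and in 21.5% to 54.1% of miR-27a-3p reads. miR-27b-3p carried such a base in 10.9% to 16.1% of reads. miR-24-2-5p carried an addition in at most 2.48% of reads, and all 24 reads of miR-24-1-5p carried none. Over all miRNAs 36.5% to 47.5% of reads carried an addition.

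**Figure D4:**
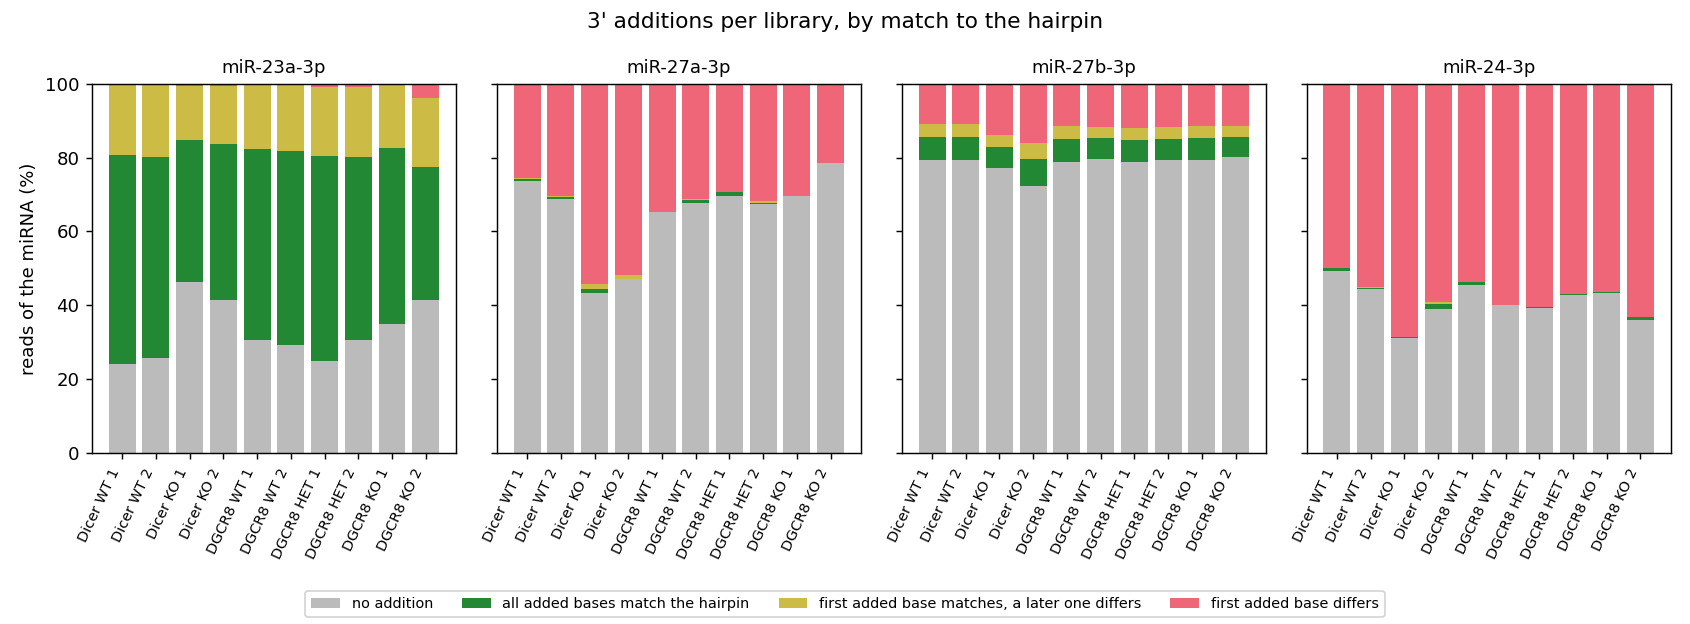
Reads of 4 members per library, in percent, split by whether the 3′ addition matches the bases that follow in the RefSeq hairpin. Dicer KO has the smallest part without an addition for miR-27a-3p (43.3% and 47.0%) and the largest for miR-23a-3p (46.3% and 41.5%), where DGCR8 KO replicate 2 reaches 41.4%.

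The share of reads with an addition differed between Dicer WT and Dicer KO for several members, given here as values with no test. Suffix forms of the members were called about as often as those of all miRNAs, as given below. miR-27a-3p carried an addition in 54.8% of its reads in Dicer KO (53.0% and 56.7%) and in 28.8% in Dicer WT (26.4% and 31.1%). The values were 33.5% in DGCR8 WT, 31.5% in DGCR8 HET and 25.9% in DGCR8 KO, so Dicer KO stood apart from the other groups. miR-24-3p with an addition went from 53.1% in Dicer WT to 64.9% in Dicer KO, and miR-27b-3p from 20.6% to 25.3%. For miR-24-3p the Dicer KO libraries (61.1% and 68.7%) overlapped those of DGCR8 KO (56.6% and 63.9%). miR-23a-3p went the other way, from 75.1% of its reads with an addition in Dicer WT to 56.1% in Dicer KO, and miR-23b-3p from 92.1% to 88.5%. The miR-23a-3p share was also lower in DGCR8 KO (65% and 58.6%) than in DGCR8 WT (69.3% and 70.7%). For miR-23b-3p the group means were 90.7% in DGCR8 WT and 90.2% in DGCR8 KO. Over all miRNAs 41.8% and 38.9% of reads carried an addition in Dicer WT, against 42.9% and 47.5% in Dicer KO.

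Each suffix form with enough reads was then tested by edgeR over all 2169 entries. Of 33 member entries 9 were called, 4 lower and 5 higher, a share close to the 29.7% called among all entries (14.6% lower and 15.2% higher). Entries of 1 miRNA share their source and are not replicates. miR-24-3p without an addition fell from 171 to 95.1 CPM (-0.85 ± 0.19, adjusted p = 0.0072, edgeR). miR-24-3p with T stood at 158 CPM in both groups (0.01 ± 0.25, adjusted p = 0.993, edgeR), and its form with A fell by 0.95 on the log2 scale. miR-27a-3p with T rose from 30.5 to 66.1 CPM (1.11 ± 0.32, adjusted p = 0.0226, edgeR). Its form without an addition stood at 114 CPM and 76.7 CPM (-0.57 ± 0.23, adjusted p = 0.0804, edgeR).

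For miR-23a-3p the called forms were lower ones. Its AA and AAT forms fell, at -0.88 ± 0.29 (adjusted p = 0.0425, edgeR) and -0.71 ± 0.22 (adjusted p = 0.0311, edgeR). The form with A (-0.54, adjusted p = 0.0542) and the form without an addition (0.64, adjusted p = 0.0541, edgeR) narrowly missed the threshold. miR-27b-3p with T rose from 509 to 799 CPM (0.65 ± 0.15, adjusted p = 0.0087, edgeR) and its AG form rose (1.04 ± 0.29, adjusted p = 0.0200, edgeR), while its form without an addition stood at 0.11 ± 0.15. Its form with A stood at 0.22 ± 0.17 (adjusted p = 0.344, edgeR). miR-23b-3p with ACT rose from 177 to 284 CPM (0.69 ± 0.18, adjusted p = 0.0130, edgeR) and its form without an addition rose from 37.7 to 70.8 CPM (0.91 ± 0.22, adjusted p = 0.0095, edgeR). Its AC form stood at -0.23 ± 0.17 (adjusted p = 0.341, edgeR) and its form with A at 0.27 ± 0.20 (adjusted p = 0.324, edgeR). miR-24-2-5p without an addition stood at -0.20 ± 0.21 (adjusted p = 0.503, edgeR).

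Most of these calls depended on single libraries. When each of the 4 Dicer-line libraries was left out in turn, miR-24-3p without an addition was called in 4 of 4 fits (adjusted p up to 0.0490). The AA and AAT forms of miR-23a-3p were called in 0 of 4, and the other 6 entries in 1 or 2 of 4. Without Dicer WT replicate 1, for example, miR-27a-3p with T stood at 0.76 (adjusted p = 0.149, edgeR). Direction was the same in all 4 omissions for each of the 9 entries. On library totals the fall was called for 1 of the 4 lower entries, miR-24-3p without an addition (-0.56, adjusted p = 0.0446, edgeR).

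miRNAs with the most similar pattern were sought among 404 others with a mean of at least 10 CPM, by Pearson's r of log2 CPM centred on the mean of each line over the 10 libraries, which share lines, scaling and depth. Closest to miR-23a-3p were miR-30a-5p (r = 0.95), miR-29c-3p (0.95), miR-148a-3p (0.93), miR-92a-3p (0.92) and miR-30c-5p (0.92). Their DGCR8 KO log2 fold changes were smaller than the -1.90 of miR-23a-3p, from -0.50 for miR-30c-5p to -1.21 for miR-29c-3p. Closest to miR-23b-3p were miR-582-5p (r = 0.93), miR-22-3p (0.88), miR-582-3p (0.87), miR-190a-5p (0.87) and miR-142-5p (0.86), which had Dicer KO values from 0.69 to 1.39. Between members of the same locus r was 0.96 to 0.99 on chromosome 8 and 0.83 for miR-23b-3p and miR-27b-3p. Between paralogs it was 0.39 for miR-23a-3p and miR-23b-3p and 0.80 for miR-27a-3p and miR-27b-3p. Across the loci miR-27b-3p also had r = 0.70 with miR-23a-3p and 0.72 with miR-24-2-5p. For miR-23b-3p the values were 0.47 with miR-27a-3p and 0.39 with miR-24-2-5p. miR-24-3p had r = 0.93 with miR-23a-3p, 0.20 with miR-23b-3p and 0.53 with miR-27b-3p. These values are a description, since the DGCR8 KO libraries that chose the clusters enter them.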

How the data were processed

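The deposited values are raw read counts per miRNA name and 3′ suffix, made by the authors with Bowtie and GRCm38, per the submitters' processing notes. The version, the mismatch setting and the handling of multiply matching reads: not given in the sources used here. DGCR8 columns carry a number that differs from the sample descriptions and were matched on line and index, so DGCR8 values rest on that match.

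Counts were summed over suffixes. edgeR 4.0.16 in R 4.3.3 fitted all 10 libraries with 1 mean per group after filterByExpr (minimum count 10, minimum total 15) and TMM scaling. Two-sided p-values were adjusted (Benjamini-Hochberg) over 557 miRNAs or 2169 entries, with calls at 0.05. They measure differences between groups of 2 mice, with a spread pooled over the 5 groups. The untested names held at most 0.0476% of reads. Alternatives used DESeq2 1.42.0, other scalings, filters and subsets. Wilson intervals and floors cover counting error only. Named miRNAs were all members, the other arms, miR-3074, the 3 most abundant entries of each member with a mean of at least 10 CPM, entries called, and 5 miRNAs most like each of miR-23a-3p and miR-23b-3p. Members and lists were chosen with earlier results of these data known, and called entries were named after their values were seen.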

Additional observations from a re-analysis of the deposited data

Results flagged for a closer look

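miR-23b-3p and miR-27b-3p lay above wild type in both Dicer KO libraries and below it in both DGCR8 KO libraries. The DGCR8 KO log2 fold change minus the Dicer KO one was -0.59 for miR-23b-3p and -0.51 for miR-27b-3p. The difference was not tested, because the DGCR8 libraries were used to choose the clusters. On library totals the DGCR8 KO values turned to 0.24 and 0.15, the same sign as in Dicer KO.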

How the results depend on the processing

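In Dicer KO the count of called miRNAs was 172, against 111 with the lines fitted apart and 99 to 184 when 1 Dicer-line library was left out. Members called higher numbered 0, against 1 with RLE size factors, 2 on library totals, 2 in DESeq2 and 1 in reads without additions (miR-23b-3p, 0.99). Members called lower numbered 0, against 1 in reads without additions (miR-24-3p, -0.76) and 0 to 1 when a library was left out. Signs reversed for miR-23a-3p on library totals (0.11) and in reads without additions (0.72), for miR-24-2-5p on library totals (0.11) and without Dicer WT replicate 2 (0.0273, with -0.296 to 0.0273 over the 4 omissions), and for miR-27a-3p with no filter on low counts (-0.0371) and in reads without additions (-0.49). None of these 6 reversed values was called, and the causes were not tested. Member entries called lower numbered 4, against 1 on library totals and 1 to 3 in the omissions, and those called higher 5, against 10 on library totals and 0 to 4 in the omissions.

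In reads without additions the share of miR-23a-3p in its pair moved to 71.9% in Dicer WT, 68.1% in Dicer KO, 68.1% in DGCR8 WT, 67.6% in DGCR8 HET and 43.7% in DGCR8 KO, since most miR-23b-3p reads carry an addition. That of miR-27a-3p moved to 1.74% in Dicer KO, 1.92% in DGCR8 WT and 1.96% in DGCR8 HET. Across all miRNAs, DGCR8 KO calls split into 66 lower and 49 higher with TMM and 14 lower and 105 higher on library totals, and Dicer KO calls into 89 and 83 with TMM and 62 and 126 on library totals. In DGCR8 KO the count of 115 calls became 5 to 10 when any 1 of its 4 libraries was left out, 84 in reads without additions and 77 in thinned libraries. DGCR8 KO against DGCR8 HET had 48 calls, against 3 to 6 without DGCR8 HET replicate 2 or either DGCR8 KO library, 72 in DESeq2, 76 on library totals, 97 for the lines apart and 85 unfiltered. The comparison of DGCR8 HET with DGCR8 WT had 18 calls with no filter and 12 without DGCR8 HET replicate 1.

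Replicate numbers only name the mice: same-numbered libraries correlated in their deviations at 0.06 between Dicer WT and Dicer KO, 0.17 between DGCR8 WT and DGCR8 KO, 0.03 between DGCR8 WT and HET and -0.05 between DGCR8 HET and KO. With the replicate number as a block, 163 miRNAs and 0 members were called in Dicer KO and 3 member entries were called lower. Depth limits miR-24-1-5p and the 5′ arms most, and 2 mice per group limit every interval.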
